A study of Caenorhabditis elegans with 12 samples.

Results

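The genes described here are 7 cathepsin B-like cysteine protease genes of *Caenorhabditis elegans* (*cpr-1*, *cpr-2*, *cpr-3*, *cpr-4*, *cpr-5*, *cpr-6* and *cpr-8*) and the serine carboxypeptidase gene *ctsa-1.2*, 8 of the 46761 genes quantified. They were chosen by name because some of them had shared a pattern across *lin-29* and *mab-10* mutants in an earlier analysis of these libraries. Their differences between either mutant and the wild-type are therefore given as a description, with no test. Levels are given as log2(FPKM+1). The FPKM of a gene are its fragments scaled to transcript length and to all mapped fragments, so that a difference of 1 is close to 2-fold at high levels and less than that at low ones. A gene was tested if its FPKM reached 1 in at least 3 libraries, and 7 of the 8 genes passed, all but *cpr-2*. In all, 14199 genes were tested.

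RNA was sequenced from whole, manually picked young adult hermaphrodites of 4 genotypes, with 3 libraries each. Every strain, the wild-type included, carries the integrated *col-19::gfp* reporter *maIs105*. The *ddx-23* mutants carry allele n5705, the *mab-10* mutants tm2497 and the *lin-29* mutants n836, each as 1 strain. The *ddx-23* allele was recovered in a screen of *mab-10* mutants, and its strain holds more than 1 missense change in the DDX-23 protein. None of these 3 transcripts was lower in its own mutant. Mean *lin-29* levels were 2.01 in the wild-type and 3.13 in *lin-29* mutants, those of *mab-10* were 2.31 and 2.90, and those of *ddx-23* were 5.71 and 6.13. These levels therefore do not check the labels. Read depth is unknown. The FPKM of a library sum to between 1038344 and 1130220, and a rough estimate of relative depth from low values ranged from 0.812 to 1.07 of wild-type replicate 1.

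Cathepsin B-like enzymes are papain-family cysteine proteases. They are made as inactive proenzymes, activated by removal of a prodomain, and work in lysosomes, in the gut lumen or outside the cell. Serine carboxypeptidases of the cathepsin A kind take single residues from the carboxyl end of proteins in the lysosome. In *C. elegans* many genes of both kinds are expressed in the intestine. *cpr-1* is a gut protease gene, and CPR-4 is a secreted protein known in *C. elegans* as a factor that carries the effects of radiation to unexposed tissue. LIN-29, a zinc-finger protein of the EGR family, and its NAB-family co-factor MAB-10 act in the hypodermis at the larval-to-adult transition. DDX-23 is a DEAD-box RNA helicase of the spliceosome.

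All positions below are in the WBcel235 assembly. Of the 8 genes, 6 are on chromosome V. *cpr-1* (WBGene00000781) lies at 11975551 to 11976756 and *cpr-4* (WBGene00000784) at 6614674 to 6615851, both on the plus strand. *cpr-2* (WBGene00000782) lies at 16532936 to 16534100 and *cpr-3* (WBGene00000783) at 15296834 to 15298700, both on the minus strand. *cpr-5* (WBGene00000785) lies at 1132598 to 1134036 on the minus strand. *cpr-8* (WBGene00021070) starts 565 bases away from it, at 1134602 to 1139182 on the plus strand, so that the starts of these 2 genes face each other. *cpr-6* (WBGene00000786) is on chromosome X, at 6607207 to 6609045, and *ctsa-1.2* (WBGene00008741) on chromosome II, at 11739358 to 11742876, both on the plus strand.

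The annotated coding sequences of the 7 *cpr* genes run from 326 codons (*cpr-2*) to 379 codons (*cpr-6*), against 454 codons for *ctsa-1.2*. The genes have between 2 exons (*cpr-4*) and 8 exons (*cpr-6*). Apart from *cpr-8*, with 2 annotated transcripts, each has 1. None of the tested ones had values identical to those of another gene. The last 66 bases of *ctsa-1.2* (11742811 to 11742876) overlap *gpb-1*, a G protein beta subunit gene on the opposite strand. The sources do not say that strand was used in counting, so reads in those bases cannot be assigned to either gene. *gpb-1* itself differed from the wild-type by 0.34 in *lin-29* mutants (adjusted p = 0.280) and by 0.50 in *mab-10* mutants (adjusted p = 0.216, limma).

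**Figure D1:**
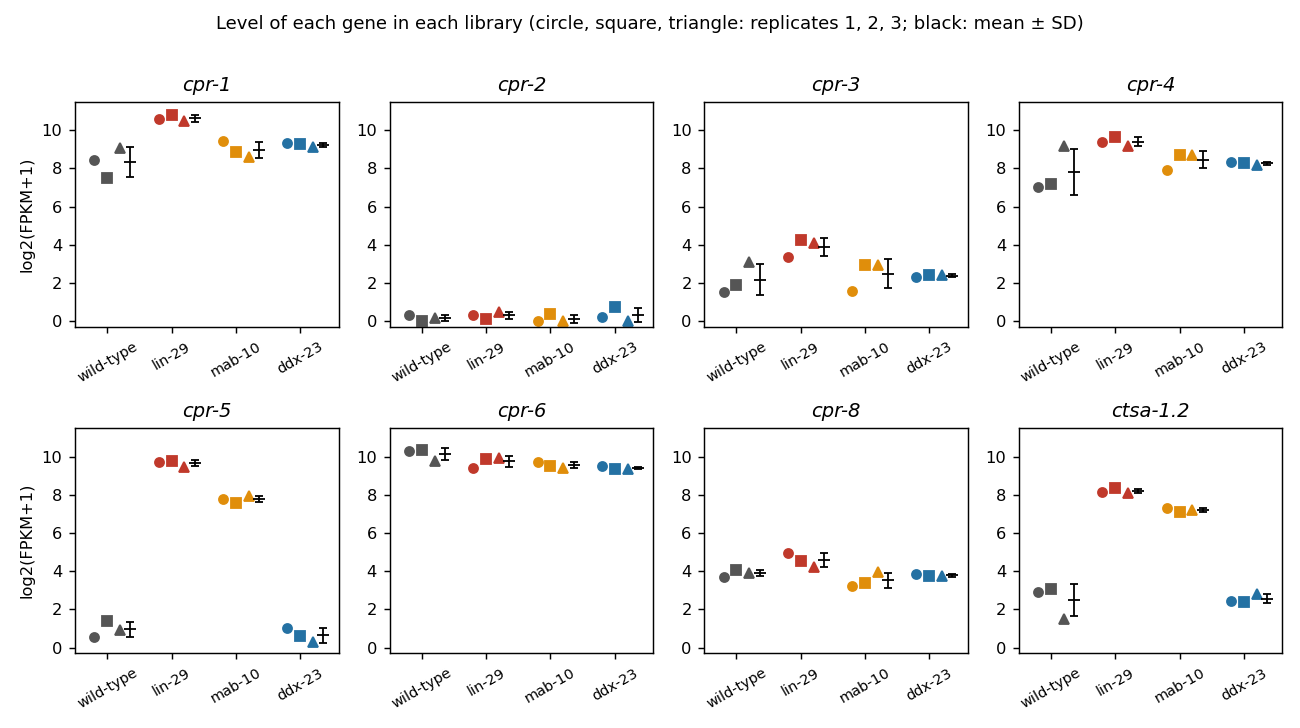
Level of each of the 8 genes, as log2(FPKM+1), in each of the 12 libraries, grouped by genotype. Circles, squares and triangles are replicates 1, 2 and 3, and the black mark is the mean ± SD of 3 libraries. *cpr-5* and *ctsa-1.2* are near the bottom in wild-type and *ddx-23* libraries and at 7.09 or above in every *lin-29* and *mab-10* library, whereas *cpr-6* lies between 9.37 and 10.34 in all of them.

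*cpr-5* was close to silent in the wild-type and among the more abundant members in *lin-29* mutants. Its level was 0.57, 1.37 and 0.90 in the 3 wild-type libraries and 9.72, 9.75 and 9.48 in the 3 *lin-29* libraries. In *mab-10* mutants it was 7.79, 7.59 and 7.95, and in *ddx-23* mutants 1.04, 0.61 and 0.26. No *lin-29* or *mab-10* library overlapped the wild-type or *ddx-23* libraries, and the *lin-29* libraries all lay above the *mab-10* libraries. The wild-type and *ddx-23* ranges overlapped. In FPKM the means ± SD (n = 3) were 806 ± 81.7 in *lin-29* and 220 ± 27.3 in *mab-10* mutants, against 0.977 ± 0.564 in the wild-type and 0.597 ± 0.434 in *ddx-23* mutants. The ratio of mean FPKM to the wild-type was 825 in *lin-29* and 225 in *mab-10* mutants. On the log2 scale the differences were 8.71 and 6.83 (standard error 0.23), each the highest among the 14199 tested genes. These ranks describe the choice, since the gene was picked on these contrasts. Outside *lin-29* and *mab-10* mutants its FPKM reached 1 only in wild-type replicate 2 (1.59) and *ddx-23* replicate 1 (1.06). The gene thus passed the filter only through the genotypes in which it was high. Since the wild-type level is near 0, the log2 difference depends on the constant added. With 0.1 in place of 1 it was 9.68 in *lin-29* and 7.80 in *mab-10* mutants.

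*ctsa-1.2* had the same order of genotypes as *cpr-5*, from a higher base. It was at 2.88, 3.06 and 1.52 in the wild-type and at 8.15, 8.34 and 8.12 in *lin-29* mutants. In *mab-10* mutants it was at 7.30, 7.09 and 7.23, and in *ddx-23* mutants at 2.43, 2.40 and 2.82. The *lin-29* libraries again lay above all *mab-10* libraries, these lay above the remaining 6, and the wild-type and *ddx-23* ranges overlapped. Mean FPKM ± SD was 294 ± 25.3 in *lin-29* and 147 ± 10.9 in *mab-10* mutants, against 5.19 ± 2.93 in the wild-type and 4.92 ± 1.01 in *ddx-23* mutants. The ratio to the wild-type was 56.6 in *lin-29* and 28.3 in *mab-10* mutants. The log2 differences of 5.71 and 4.72 (standard error 0.32) ranked 25 and 4 from the top among all tested genes. These ranks too describe the choice.

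*cpr-1*, *cpr-3* and *cpr-4* were highest in *lin-29* mutants, but already present in the wild-type, and their *mab-10* libraries overlapped the wild-type ones. *cpr-1* was among the most abundant members, at 8.42, 7.51 and 9.08 in the wild-type and 10.61, 10.81 and 10.46 in *lin-29* mutants. It was at 9.42, 8.85 and 8.58 in *mab-10* and at 9.33, 9.26 and 9.13 in *ddx-23* mutants. All *lin-29* libraries lay above the other 9, and all *ddx-23* libraries lay above the wild-type ones by a narrow margin. The differences from the wild-type were 2.29 in *lin-29* and 0.61 in *mab-10* mutants (standard error 0.33).

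*cpr-4* was at 7.02, 7.18 and 9.18 in the wild-type, so that replicate 3 alone was near the *lin-29* libraries, which were at 9.36, 9.64 and 9.20. It was at 7.94, 8.72 and 8.71 in *mab-10* and at 8.34, 8.27 and 8.20 in *ddx-23* mutants. The *lin-29* range sat just above the highest wild-type library, and the *mab-10* and *ddx-23* ranges lay inside the wild-type one. The differences from the wild-type were 1.61 in *lin-29* and 0.66 in *mab-10* mutants (standard error 0.46).

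*cpr-3*, which encodes another enzyme of the family, was expressed at far lower levels. It was at 1.51, 1.90 and 3.08 in the wild-type and at 3.36, 4.26 and 4.08 in *lin-29* mutants. The *mab-10* libraries were at 1.59, 2.96 and 2.92 and the *ddx-23* libraries at 2.32, 2.40 and 2.43. As for *cpr-4*, wild-type replicate 3 was the highest of its group, and all *lin-29* libraries lay above all others. The differences from the wild-type were 1.74 in *lin-29* and 0.33 in *mab-10* mutants (standard error 0.45).

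*cpr-8*, the neighbour of *cpr-5*, ranged from 3.22 to 4.96 over all libraries. It was at 3.72, 4.04 and 3.90 in the wild-type and at 4.96, 4.54 and 4.23 in *lin-29* mutants. The *mab-10* libraries were at 3.22, 3.39 and 3.95 and the *ddx-23* libraries at 3.86, 3.75 and 3.74. The *lin-29* libraries lay above the rest, and the other genotypes overlapped. Its differences from the wild-type were 0.69 in *lin-29* and -0.37 in *mab-10* mutants (standard error 0.22).

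*cpr-6* had lower means in all 3 mutants. It was the most abundant member in each wild-type library, at 10.29, 10.34 and 9.79, and stood at 9.43, 9.90 and 9.94 in *lin-29* mutants. The *mab-10* libraries were at 9.72, 9.54 and 9.38 and the *ddx-23* libraries at 9.49, 9.37 and 9.37. The *mab-10* and *ddx-23* libraries lay below every wild-type library, and the *lin-29* libraries overlapped the wild-type ones. The differences from the wild-type were -0.39 in *lin-29* and -0.59 in *mab-10* mutants (standard error 0.17). *cpr-2* was at or near 0 throughout, with an FPKM of 0 to 0.66 in the 12 libraries, and was not compared.

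**Figure D2:**
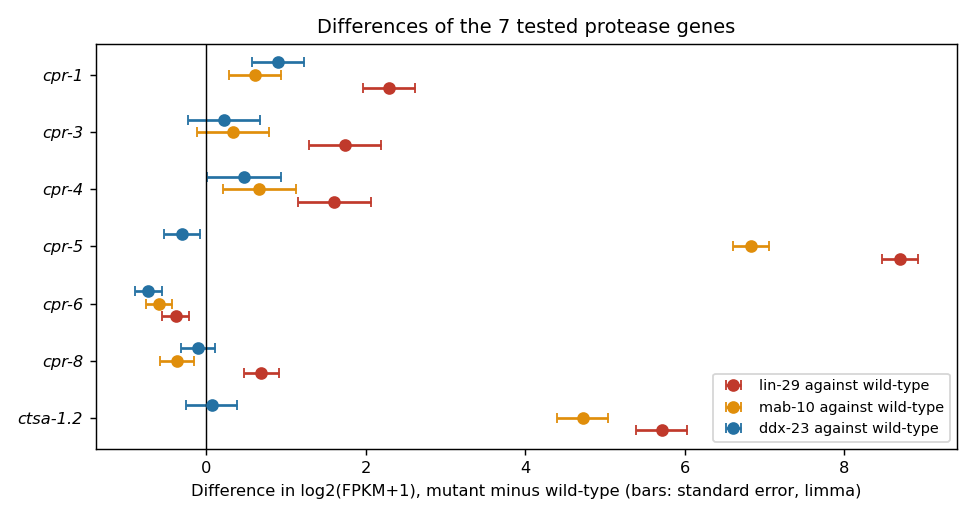
Difference in log2(FPKM+1) of the 7 tested genes between each mutant and the wild-type, with bars of 1 standard error from the limma model. *cpr-5* and *ctsa-1.2* differ by 4.72 to 8.71 in *mab-10* and *lin-29* mutants, whereas their *ddx-23* points are at -0.30 and 0.06. In *ddx-23* mutants the 7 genes range from -0.73 (*cpr-6*) to 0.90 (*cpr-1*).

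As a description of the choice, 5 of the 7 tested genes passed an adjusted p under 0.05 with a difference over 1 in *lin-29* mutants, where 11.1% of all tested genes did so in that direction. In *mab-10* mutants 2 of 7 did, *cpr-5* and *ctsa-1.2*, against 0.901% of all tested genes. Nothing is read from these counts, because the genes were picked on these contrasts. The median difference of the 7 genes was 1.74 in *lin-29* and 0.61 in *mab-10* mutants, beside 0.19 and 0.14 over all tested genes. After scaling by the median ratio between libraries the latter medians were 0.029 and -0.002. Without wild-type replicate 1 or 2 or *lin-29* replicate 2 or 3, *cpr-3* and *cpr-4* left the count in *lin-29* mutants, which became 3. Without wild-type replicate 3, *cpr-4* joined that of *mab-10* mutants, which became 3.

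The 8 genes were also summed. Their summed FPKM was 1644 to 2028 in the wild-type, 3999 to 4765 in *lin-29*, 1884 to 2156 in *mab-10* and 1536 to 1703 in *ddx-23* libraries. The sum of the *lin-29* libraries was thus higher than that of any other library. *cpr-6* gave 43.5% to 78.6% of this sum in the wild-type, 16.9% to 24.5% in *lin-29* mutants and 35.4% to 43.0% in the *mab-10* and *ddx-23* libraries. *cpr-1* gave at most 26.7% in the wild-type and 20.2% to 31.7% in *mab-10* mutants, and 35.3% to 38.4% in both *lin-29* and *ddx-23* mutants. *cpr-5* gave at most 0.097% in the wild-type, 17.8% to 20.7% in *lin-29* and 9.76% to 13.1% in *mab-10* mutants.

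The *ddx-23* mutants were compared with the wild-type by limma, with p-values adjusted over all 14199 tested genes. The wild-type libraries are shared with the contrasts that chose the genes, and it was already known that *cpr-5* and *ctsa-1.2* were not called here. None of the 7 genes passed an adjusted p under 0.05 with a difference over 1, where 4.70% of all tested genes were called higher and 0.401% lower. At an unadjusted p under 0.05 there were 2, *cpr-1* and *cpr-6*. Without the fold threshold, 1.46% of all tested genes were lower by the test. Among them was *cpr-6*, with a difference of -0.73 (standard error 0.17, adjusted p = 0.0215). That call was lost without wild-type replicate 1, without wild-type replicate 2 and without each *ddx-23* library (adjusted p = 0.0567 to 0.0971). *cpr-5* differed by -0.30 (adjusted p = 0.469) and *ctsa-1.2* by 0.06 (standard error 0.32, adjusted p = 0.941). *cpr-8* differed by -0.10 and *cpr-3* by 0.22 (adjusted p = 0.836 and 0.834). With the library series as a term *cpr-3* differed by 0.61 and passed at the adjusted p (0.0274), and in the earlier libraries alone by 0.68 (adjusted p = 0.0239), both under the fold threshold.

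For *cpr-1* and *cpr-4* this comparison depended on single libraries. The differences of 0.90 (adjusted p = 0.122) and 0.47 (adjusted p = 0.603) became 1.27 and 1.17 without wild-type replicate 3, and both then passed (adjusted p = 0.0148 and 0.00737 from limma). That library is the only wild-type one of the later series described below, whereas all *ddx-23* libraries are of the earlier series. With other libraries left out the differences fell as low as 0.49 for *cpr-1* and 0.09 for *cpr-4*. A p-value above the threshold does not show equal levels in any of these cases.

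*lin-29* and *mab-10* mutants were then compared with each other. These libraries also chose the genes, so the p-values are not independent of that choice. All 7 tested genes had a higher mean in *lin-29* than in *mab-10* mutants, beside a median difference of -0.004 over all tested genes. Nothing is read from this direction, because the genes were picked on values of these libraries. Of the 7, 3 were called, all of them higher. Of all tested genes 6.11% were called in either direction, 753 higher and 114 lower. *cpr-5* was higher by 1.87 (standard error 0.23, adjusted p = 4.31e-04), a ratio of mean FPKM of 3.67. *cpr-1* was higher by 1.68 (standard error 0.33, adjusted p = 0.00859) and *cpr-8* by 1.06 (standard error 0.22, adjusted p = 0.0116), each in 3 of 3 libraries. The difference of *cpr-8* falls under the 2-fold threshold without *lin-29* replicate 1 (0.87), *mab-10* replicate 1 (0.91) or *mab-10* replicate 2 (0.996), with an adjusted p of 0.0231 to 0.0438, and it did not pass in a fit of these 2 genotypes alone (adjusted p = 0.0918). In the earlier libraries alone, with 1 per mutant and the spread taken from the wild-type and *ddx-23* libraries, *cpr-5* was higher by 1.93 and *cpr-1* by 1.19, and neither passed (adjusted p = 0.0547 and 0.119).

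The remaining 4 genes did not pass. *ctsa-1.2* differed by 0.99 (adjusted p = 0.0808), with no overlap between the libraries. *cpr-3* differed by 1.41 (adjusted p = 0.0806), *cpr-4* by 0.94 (adjusted p = 0.251) and *cpr-6* by 0.21 (adjusted p = 0.511). With the replicate number as a block, *cpr-3* passed as well (adjusted p = 0.0253 from limma), which made 4 of 7. The replicate numbers are not known to pair samples. The *lin-29* and *mab-10* differences from the wild-type share the wild-type libraries, and their likeness is not counted as a result.

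The libraries also fall into an earlier and a later series by the numbers in their labels, divided with the values in view. The later series holds wild-type replicate 3 and replicates 2 and 3 of *lin-29* and *mab-10*, and the earlier one the other 7, all 3 *ddx-23* libraries among them. Some members differed between the series and others did not. The later wild-type library exceeded the mean of the 2 earlier ones by 2.08 for *cpr-4*, 1.38 for *cpr-3* and 1.12 for *cpr-1*, beside a median of 0.16 over all tested genes. It was 1.46 lower for *ctsa-1.2* and differed by -0.07 for *cpr-5*. In *mab-10* mutants the later libraries exceeded the earlier one by 1.35 for *cpr-3* and 0.78 for *cpr-4*, but for *cpr-1* they differed by -0.70. In *lin-29* mutants the shifts were 0.81 for *cpr-3*, 0.06 for *cpr-4* and 0.02 for *cpr-1*.

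Within a series, *cpr-5* differed from the wild-type by 8.75 (earlier) and 8.72 (later) in *lin-29* mutants. For *mab-10* mutants the differences were 6.82 and 6.88. *ctsa-1.2* differed by 5.17 and 6.71 in *lin-29* mutants, and 4.33 and 5.64 were the values of *mab-10* mutants. Both genes were thus far above the wild-type in either series. *cpr-4* was not, since it differed by 2.26 in the earlier and by only 0.24 in the later series in *lin-29* mutants. For *mab-10* mutants its values were 0.84 and -0.46. *cpr-1* differed by 2.64 and 1.55 in *lin-29* mutants, and by 1.45 and -0.37 in *mab-10* mutants. *cpr-3* differed by 1.66 and 1.09 in *lin-29* mutants. In *mab-10* mutants it was at -0.11 and -0.14, so that their small pooled difference was not seen within either series.

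*cpr-8* differed by 1.08 in the earlier and 0.49 in the later series in *lin-29* mutants, and *cpr-6* by -0.89 and 0.13. Between *lin-29* and *mab-10* mutants the difference of *cpr-5* was 1.93 in the earlier and 1.84 in the later series, and that of *cpr-1* was 1.19 and 1.92. Each series holds as few as 1 library of a genotype, so that these are values with little replication.

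Some members also varied together over the libraries, and the part of the series in this was not tested. Over the 12 libraries *cpr-5* and *ctsa-1.2* had a Pearson correlation of 0.988, which became 0.043 once the mean of each genotype was taken out. The likeness of these 2 genes therefore lay between genotypes. *cpr-3* and *cpr-4* had a correlation of 0.913, and of 0.844 within genotypes. *cpr-4* and *ctsa-1.2* had one of 0.533 over all libraries but of -0.882 within genotypes, where wild-type replicate 3 was high for the former and low for the latter. These correlations share the same 12 libraries and are descriptions only.

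The genes around *cpr-5* and *ctsa-1.2* differed by less than these 2 genes did, though some were called. Nothing is read from this contrast, because the 2 genes were picked on values of these libraries. Within 50 kb of the start of *cpr-5*, the 11 other tested genes differed by 0.21 to 1.99 in *lin-29* and by -0.40 to 1.13 in *mab-10* mutants. In *lin-29* mutants 3 of the 11 were called higher (*ptr-16*, *F25A2.1* and *Y50D4B.4*), where 11.1% of all tested genes were, and in *mab-10* mutants 1 was (*Y50D4B.6*), where 0.901% were. One of the 11, *W07B8.4*, another cathepsin B-like gene, lies 667 bases beyond the end of *cpr-5*. It differed by 0.70 in *lin-29* (adjusted p = 0.254) and by -0.17 in *mab-10* mutants (adjusted p = 0.835, limma). *cpr-8*, on the other side, has been given above. Within 50 kb of *ctsa-1.2*, 19 other tested genes differed by -0.51 to 2.84 in *lin-29* and by -0.32 to 1.03 in *mab-10* mutants. Called higher were 3 of the 19 in *lin-29* mutants (*F44E5.5*, *F13D12.3* and *fcmt-1*) and none in *mab-10* mutants, and in *ddx-23* mutants *F13D12.3* was, by 3.57 (adjusted p = 8.20e-05). *lin-29* itself lies 174.8 kb from *ctsa-1.2* on chromosome II, and *mab-10* lies 1.205 Mb from it.

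**Figure D3:**
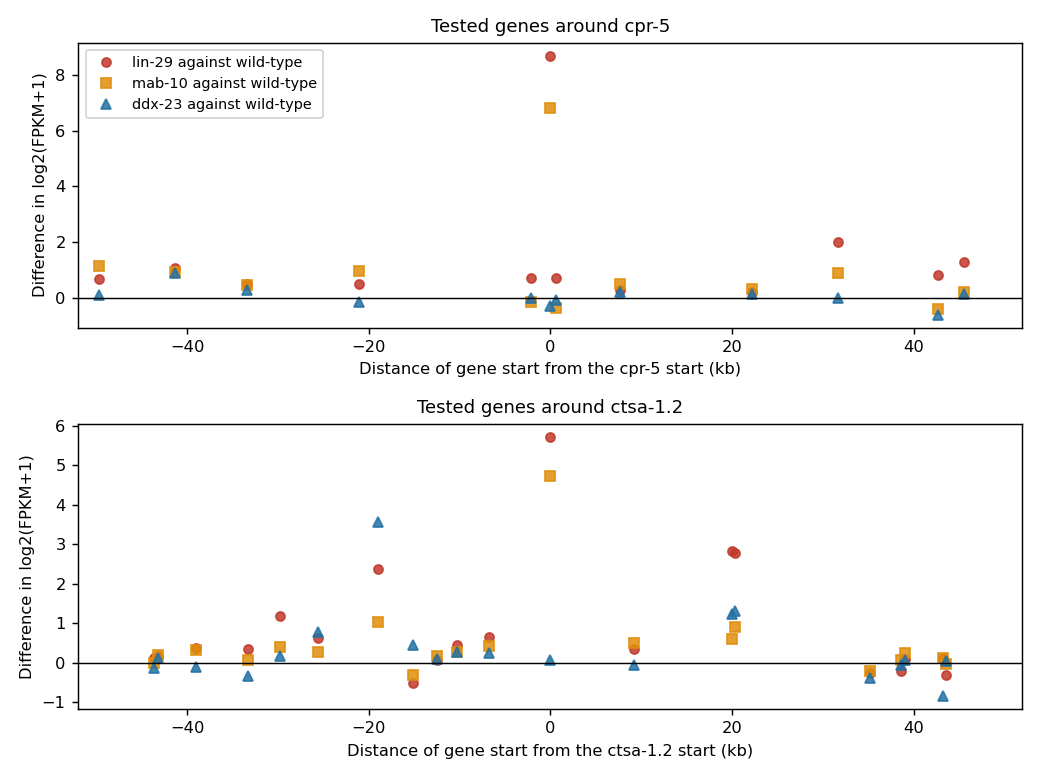
Difference in log2(FPKM+1) from the wild-type for each tested gene whose start lies within 50 kb of the start of *cpr-5* (top) or *ctsa-1.2* (bottom), against the distance between the starts in kb. Circles are *lin-29*, squares *mab-10* and triangles *ddx-23* mutants. The gene at 0 stands apart in *lin-29* and *mab-10* mutants in both panels, at 8.71 and 6.83 for *cpr-5* and at 5.71 and 4.72 for *ctsa-1.2*. That is not counted as a result, since both genes were picked on values of these same libraries.

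For the other members only the tested gene on either side was compared. The nearest tested gene to *cpr-1*, *mif-2*, a macrophage migration inhibitory factor homologue whose annotated end lies 20 bases from it, differed by 0.50 in *lin-29* mutants (adjusted p = 0.214). *ppt-1*, the palmitoyl-protein thioesterase gene to the right of *cpr-4*, differed by 0.40 (adjusted p = 0.443). Around *cpr-6*, *hic-1* differed by 0.83 and *clec-266* by 0.88 (adjusted p = 0.285 and 0.165). The highest differences of such genes in *mab-10* mutants were 1.45 for *hic-1* and 1.15 for *F58H1.7*, to the left of *cpr-1* (adjusted p = 0.170 and 0.286). None of the genes next to a member, other than the pair of *cpr-5* and *cpr-8*, passed an adjusted p of 0.05 in *lin-29* or *mab-10* mutants.

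The genes most like *cpr-5* over the 12 libraries, apart from the members, were *F42G4.7* (Pearson correlation 0.986), *C27C7.1* (0.982), *F20G2.3* (0.973), *puf-6* (0.964) and *egli-1* (0.957). The next 5 were the pseudogene WBGene00008933 (0.954), *rol-3* (0.951), *F35C12.3* (0.942), *sdz-8* (0.936) and *arrd-14* (0.936). *puf-6* encodes a Pumilio-family RNA-binding protein and *rol-3* a receptor tyrosine kinase. The 5 genes most like *ctsa-1.2* were all among these 10, in the order *C27C7.1* (0.979), *F42G4.7* (0.969), *puf-6* (0.959), WBGene00008933 (0.955) and *F20G2.3* (0.954). The list is not firm, since only 3 of the 10 genes remained among the 10 most like *cpr-5* without *mab-10* replicate 1. Leaving out wild-type replicate 3 kept 4 of them, and leaving out *lin-29* replicate 1 kept 5. Without any other library 7 to 9 remained.

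*C27C7.1* was the closest to an on-off pattern. It was at 0.11, 0 and 0.12 in the wild-type and at 0.10, 0 and 0.11 in *ddx-23* mutants, against 7.15, 6.73 and 6.74 in *lin-29* mutants. The *mab-10* libraries were at 7.48, 6.55 and 6.40. The mean difference between *lin-29* and *mab-10* mutants was 0.06, so that this gene lacked the step of 1.87 between them seen for *cpr-5*. *puf-6* was at 2.98, 2.95 and 3.38 in the wild-type and at 3.65, 3.54 and 3.64 in *ddx-23* mutants. Its levels were 7.22, 6.67 and 6.75 in *lin-29* libraries, with 7.19, 7.11 and 7.13 in those of *mab-10*. It too was about as high in *mab-10* as in *lin-29* mutants, with overlapping ranges.

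Of the 10 genes most like *cpr-5*, 5 lie on chromosome II, which holds 17.6% of the tested genes with a position. Chromosome V, with 19.6% of them, holds 3 of the 10, and chromosome I, with 16.2%, holds 2. Nothing is read from these counts, since the list was drawn from these libraries and is not firm. *puf-6* (13039792 to 13043445), WBGene00008933 (13043951 to 13045975) and *F42G4.7* (13046102 to 13047290) lie close together on chromosome II. These 3 lie 1.104 to 1.111 Mb from *lin-29* and 2.505 to 2.512 Mb from *mab-10*. *egli-1* lies 2.593 Mb from *lin-29* and 1.203 Mb from *mab-10*, and *arrd-14* 1.817 Mb and 3.218 Mb. *ctsa-1.2* is on the same chromosome, whereas *cpr-5* is not. Strain background near the mutated genes and the mutations themselves cannot be told apart in these strains.

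**Figure D4:**
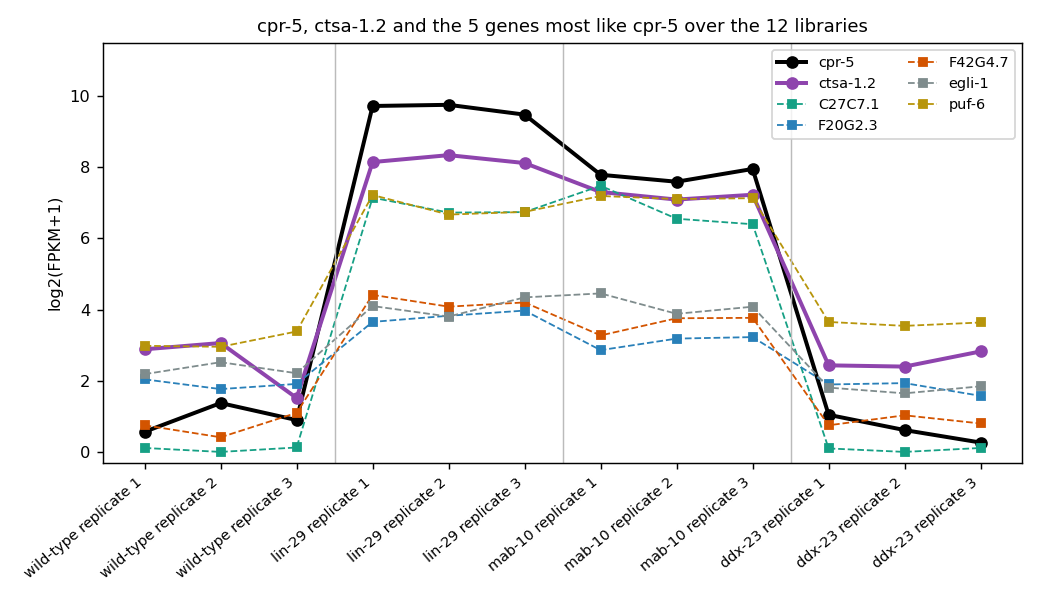
Level as log2(FPKM+1) of *cpr-5* and *ctsa-1.2* (solid lines) and of the 5 genes most like *cpr-5* (dashed lines) in each of the 12 libraries. The lines only join the points of a gene, and vertical lines part the genotypes. All 7 genes are higher in each *lin-29* and *mab-10* library than in any wild-type or *ddx-23* library. This separation is not counted as a result, since all 7 were picked on values of these same libraries. *cpr-5* steps down from 9.48 or more in *lin-29* to 7.95 or less in *mab-10* mutants.

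Related protease genes were counted at an adjusted p under 0.05, with no fold threshold, in which case 16.3% of all tested genes passed with a higher and 2.73% with a lower level in *lin-29* mutants. Of 9 other tested papain-family genes, 1 rose and 3 fell in *lin-29* mutants, with a median of 0.30, and at an unadjusted p under 0.05 there were 4 higher and 3 lower. The gene that rose was *cpz-2*, of the cathepsin Z kind, by 1.33 (adjusted p = 0.00236). Those that fell were *cpz-1*, a cathepsin Z gene needed for molting, by 0.82 (adjusted p = 0.0263), the cathepsin L gene *cpl-1*, which fell by 0.54 (adjusted p = 0.00242), and *cpr-9*, which fell by 0.49 (adjusted p = 0.0255). The genes thus went both ways. Both counts rest on single libraries, since 3 rose without *lin-29* replicate 1, as they did without replicate 3 of the wild-type. Without *lin-29* replicate 3 the number was 2, as it was without *mab-10* replicate 1. Only 1 fell when replicate 1 or 2 of the wild-type was left out. In *mab-10* mutants 0 of 9 passed in limma (median -0.21), and 3 had an unadjusted p under 0.05. In *ddx-23* mutants *cpr-9* fell by 0.68 (adjusted p = 0.00950).

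Of 10 other serine carboxypeptidase genes, 3 rose in *lin-29* mutants, namely *ctsa-2*, another cathepsin A-like gene, by 1.25 (adjusted p = 4.55e-05), *pcp-1* by 0.83 and *pcp-4* by 0.77, both of the prolyl carboxypeptidase kind (adjusted p = 0.0169 and 0.0310). In *mab-10* mutants 0 of 10 passed in limma, also at an unadjusted p under 0.05, and the median was -0.21 and the highest difference 0.20. The highest of these lay below the 4.72 of *ctsa-1.2*. Nothing is read from that contrast, because *ctsa-1.2* was picked on values of these libraries. In *ddx-23* mutants 1 rose, *pcp-5*, by 0.89 (adjusted p = 0.00300).

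Of the 6 related lists, the metallocarboxypeptidase genes had the highest median in *lin-29* mutants. In *lin-29* mutants 9 of 12 rose and none fell, with a median of 1.44. *suro-1*, a carboxypeptidase gene known for its part in cuticle and body shape, rose by 3.89 (adjusted p = 9.02e-05), *T06A4.3* by 3.08 (adjusted p = 3.27e-04) and *W01A8.6* by 2.46 (adjusted p = 9.06e-04). All 12 had a mean above the wild-type in *mab-10* mutants as well, with a median of 0.89 and a range of 0.45 to 1.27, but 0 passed in limma there, where 1.04% of all tested genes were higher at this threshold, and 10 had an unadjusted p under 0.05. Without *mab-10* replicate 1, 8 of the 12 passed, and without wild-type replicate 3, 4 did. In *ddx-23* mutants 1 passed, *Y47G6A.19*, higher by 1.29 (adjusted p = 0.00669), against 7.17% of all tested genes, and there were 2 without wild-type replicate 3 and 3 without *mab-10* replicate 1.

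The cystatins are the natural inhibitors of papain-family proteases, and *C. elegans* has *cpi-1* and *cpi-2* on the list. *cpi-1* ranged from 6.36 to 7.21 in the wild-type, 8.19 to 8.93 in *lin-29*, 7.13 to 7.94 in *mab-10* and 7.91 to 8.11 in *ddx-23* mutants. It rose by 1.94 in *lin-29* (adjusted p = 5.70e-04) and by 1.33 in *ddx-23* mutants (adjusted p = 0.0113), with no overlap with the wild-type, although the latter call was lost without wild-type replicate 2, and differed by 0.94 in *mab-10* mutants (adjusted p = 0.119), where the ranges overlapped and the test was passed without *mab-10* replicate 1 and without replicate 3 of the wild-type. *cpi-2*, the more abundant one in the wild-type, differed by at most 0.23 in any mutant, and none of its differences passed.

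Of 11 aspartyl protease genes, which include the cathepsin D-like enzymes, 6 rose and 1 fell in *lin-29* mutants, with a median of 0.88. *asp-17* rose by 2.02 (adjusted p = 7.79e-04), *asp-6* by 1.15 (adjusted p = 8.08e-04) and *asp-1* by 1.04 (adjusted p = 4.53e-05), whereas the cathepsin D-like gene *asp-4* fell by 0.82 (adjusted p = 0.00150). In *mab-10* mutants 0 passed in limma, with 6 lower at an unadjusted p under 0.05, and the median was -0.39. Without *mab-10* replicate 1 or wild-type replicate 3, 3 fell. Compared directly, 6 of the 11 were higher in *lin-29* than in *mab-10* mutants, among them *asp-17* by 1.59 (adjusted p = 0.00601), where 7.28% of all tested genes were. In *ddx-23* mutants 0 passed, with 1 higher and 3 lower at an unadjusted p under 0.05, and without wild-type replicate 3 1 rose and 3 fell.

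Of 43 genes of lysosomal membranes, acid hydrolases and the V-ATPase, 13 rose in *lin-29* mutants and none fell, with a median of 0.31. Only 4 rose without *lin-29* replicate 2, and 8 without *lin-29* replicate 3. Leaving out replicate 1 or 2 of the wild-type also gave 4, and leaving out its replicate 3 gave 19, with 1 gene that fell. *lgmn-1*, a legumain-like cysteine endopeptidase gene of another family than papain, rose by 1.61 (adjusted p = 0.0435), the lipase gene *lipl-5* by 1.24 (adjusted p = 0.0258) and the glucocerebrosidase gene *gba-1* by 1.22 (adjusted p = 0.00165). The count also depends on the scaling, since 5 rose and 2 fell after scaling by the median ratio. In *mab-10* mutants 2 fell, the sphingomyelinase gene *asm-3* by 1.23 (adjusted p = 0.0267) and the DNase gene *nuc-1* by 0.43 (adjusted p = 0.0494), where 0.232% of all tested genes were lower, and none rose, but without *mab-10* replicate 1 or wild-type replicate 3, 7 or 8 rose. None fell when replicate 2 or 3 of *mab-10*, replicate 1 or 2 of the wild-type or replicate 2 of *ddx-23* was left out, and 1 fell when replicate 2 or 3 of *lin-29* or replicate 1 or 3 of *ddx-23* was. In *ddx-23* mutants 2 rose and 3 fell. The number that rose was 6 without wild-type replicate 3 and 1 when *mab-10* replicate 3 was left out, and none rose when any other wild-type library or any *ddx-23* library was.

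**Figure D5:**
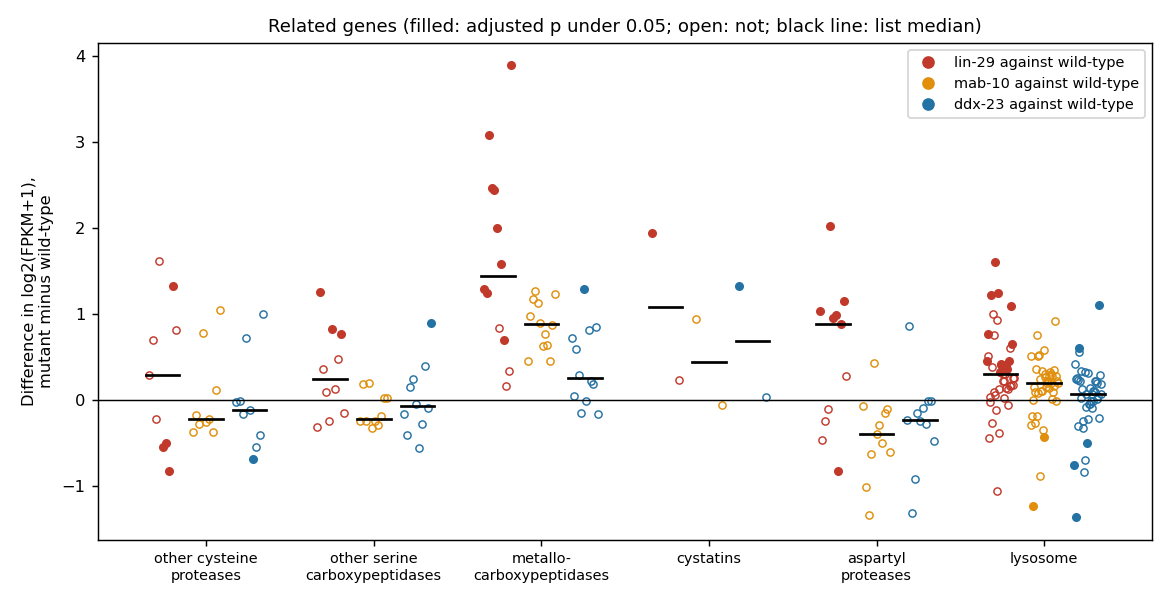
Difference in log2(FPKM+1) between each mutant and the wild-type for every tested gene of 6 related lists. Filled points passed an adjusted p under 0.05, open points did not, and black lines are list medians. In *lin-29* mutants most metallocarboxypeptidase points are filled, with a median of 1.44, whereas in *mab-10* mutants only 2 points, both of the lysosome list, are filled.

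Markers of tissues changed between genotypes as well. Since whole animals were used, fewer cells of a type and less RNA per cell cannot be told apart. The summed FPKM of 12 intestine markers was 4537 to 7300 in the wild-type, 5329 to 5870 in *lin-29*, 3713 to 4784 in *mab-10* and 4324 to 5386 in *ddx-23* mutants. The *lin-29* range lay inside the wild-type one. The most abundant markers, *spp-5* and *mtl-2*, weigh most in this sum, at mean levels of 11.80 and 10.80 in the wild-type. In *lin-29* mutants they differed by -5.5e-05 and -0.69. Of these 12 genes, 4 rose in *lin-29* mutants, such as *ges-1*, a gut esterase gene, by 0.92 (adjusted p = 0.0382) and *elt-2*, the GATA factor gene of the gut, by 0.77 (adjusted p = 0.0215), and 1 fell (*mtl-2*), but 2 rose without *lin-29* replicate 2 or 3, and none fell without *lin-29* replicate 2 or without wild-type replicate 1 or 2. All 12 were detected in each genotype.

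Of 8 tested markers of molting hypodermis, 7 rose in *lin-29* mutants, with a median of 2.55, and the summed FPKM of the 9 genes on the list was 179 to 382 there. It was 25.9 to 88.5 in the wild-type, 66.8 to 120 in *mab-10* and 21.5 to 29.2 in *ddx-23* mutants. The *lin-29* sums were thus the highest, as for *cpr-5*. The *mab-10* and wild-type ranges overlapped, as did the wild-type and *ddx-23* ranges. In *mab-10* mutants no marker on this list passed in limma, though up to 4 rose when a library was left out. There *nas-36* and *nas-37* differed by -0.44 and -1.13, and the other tested markers by 0.56 to 1.64. Of 6 adult cuticle collagen genes, 2 fell and 1 rose in *lin-29* mutants, with a median of -0.31. *col-19* and *col-119* fell by 3.96 and 4.98 (adjusted p = 2.97e-04 and 1.49e-06), and *col-120* rose by 2.43 (adjusted p = 0.00450). The other 3 differed by -0.49 to 0.61 and did not pass. Summed sperm markers were 232 to 292 in *lin-29*, 124 to 202 in the wild-type, 84.9 to 149 in *mab-10* and 164 to 341 in *ddx-23* mutants, and oocyte markers 4777 to 5096, 5859 to 6328, 5896 to 6459 and 6255 to 6543. Of the 9 oocyte markers, 2 passed in *lin-29* mutants. These were *perm-2*, which differed by -0.59, and *perm-4*, by -0.40 (adjusted p = 0.00811 and 0.00443, limma). The others differed by -0.21 to 0.02 and did not pass. Embryo markers summed to no more than 45.0 in any library, with *med-1* or *med-2* at 0 in every library of each genotype but *mab-10*. The part of these shifts in the members' differences was not tested.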

How the data were processed

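RNA of young adult hermaphrodites was sequenced on an Illumina NextSeq500 by the authors, with 3 libraries per genotype from separate populations of animals. Alignment by the authors used STAR 2.5.3a, and their gene quantification RSEM 1.3.0. The submitters' processing notes also name FastQC. The deposited table holds log2 of FPKM plus 1, computed by the authors with no filter, and FPKM were recovered by undoing that step. The study tested read counts, which were not used here. Instead limma 3.58.1 (R 4.3.3, trend and robust options, checked on simulated data) was fitted to the log2 values. It covered 14199 genes, those whose FPKM reached 1 in 3 or more libraries. The model held the 4 genotypes over 12 libraries and left 8 residual degrees of freedom. P-values were adjusted over all tested genes by Benjamini-Hochberg, and a call needed both a difference over 1 and an adjusted p under 0.05.

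The members, the gene lists and the alternatives were chosen with earlier results of these data known. Text names all 8 members, up to 3 genes per list and comparison, neighbours of members and the genes most like *cpr-5* (10) and *ctsa-1.2* (5). C27C7.1 and *puf-6* were picked for their values in each library after these were seen, as were the called neighbours of *cpr-5* and *ctsa-1.2*. Positions come from an Ensembl annotation of WBcel235, the assembly the authors name, which may be of another release. Same-numbered *lin-29* and *mab-10* libraries deviated together (correlations 0.460, 0.198 and 0.331), and a block was fitted for that pair. In both genotypes number 1 is of the earlier series and numbers 2 and 3 of the later. Pairing and series therefore cannot be told apart. The alternatives were other scalings, another constant, no filter, fits of 2 genotypes or without trend and robust options, a replicate block, the library series as a term, and each library left out. Figures were drawn with matplotlib 3.10.9, and summaries made in pandas 2.3.3 and numpy 2.4.6 under Python 3.11.15.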

Additional observations from a re-analysis of the deposited data

How the results depend on the processing

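Against the wild-type, the members called higher numbered 5 of 7 in *lin-29* mutants (3 to 5 when a library was left out), where 11.1% of all tested genes were. They numbered 2 in *mab-10* mutants (2 to 3), against 0.901%, and 0 in *ddx-23* mutants (0 to 2), against 4.70%. In *lin-29* against *mab-10* mutants they numbered 3 (2 to 4), where 6.11% of all tested genes were called in either direction. The genes were picked on *lin-29* and *mab-10* values, so these ranges describe that choice and test nothing. In a fit of the 2 genotypes compared, *lin-29* against the wild-type gave 3, and in the earlier libraries alone *ddx-23* gave 2. *cpr-5* kept its direction under every alternative run in *lin-29* and *mab-10* mutants. *ctsa-1.2* in *ddx-23* mutants, at 0.06, turned to -0.039 with median ratio scaling, -0.23 with quantile normalization, -0.10 with the series as a term and -0.42 in the earlier libraries alone, and ranged from -0.42 to 0.35 when a library was left out. *cpr-3* there, at 0.22, turned to -0.10 with quantile normalization and ranged from -0.11 to 0.68, and with the series as a term it was 0.61 (adjusted p = 0.0274 from limma). *cpr-6* in *lin-29* against *mab-10* mutants, at 0.21, turned to -0.29 in the earlier libraries alone. The causes were not tested.

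Over all tested genes, 1577 were called higher and 120 lower in *lin-29* mutants, ranging from 1133 to 2180 and from 92 to 189 when a library was left out. Quantile normalization gave 967 and 474, and 205 or 199 were lower in the earlier or later libraries alone. In *mab-10* mutants 128 were higher and 19 lower (40 to 1049 and 9 to 185). The count of 1049 was without *mab-10* replicate 1, and 993 were higher without wild-type replicate 3. There were 198 higher with 0.1 added, 63 higher and 36 lower with quantile normalization, 16 and 4 in the 2 genotypes alone, 312 and 38 with the series as a term, 572 and 203 in the earlier and 343 and 58 in the later libraries. In *ddx-23* mutants 667 were higher and 57 lower (428 to 977 and 31 to 125). The lower count was 88 with 0.1 added, 86 with median ratio scaling, 152 with quantile normalization and 87 with the replicate block. With the series as a term 1209 were higher and 139 lower, and in the earlier libraries 1281 and 171. Between *lin-29* and *mab-10* mutants 753 were higher and 114 lower (491 to 976 and 80 to 157), 465 and 68 in the 2 genotypes alone. The lower count was 235 with quantile normalization, 270 in the earlier and 236 in the later libraries.

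Genes of the 6 related lists at an adjusted p under 0.05 numbered 37 in *lin-29* mutants (23 to 47 when a library was left out), 2 in *mab-10* (0 to 21), 9 in *ddx-23* (6 to 20) and 21 between *lin-29* and *mab-10* mutants (16 to 27). In *mab-10* mutants there was 1 with no filter and 1 without trend and robust options, 0 in the 2 genotypes alone, 12 with the series as a term, 20 in the earlier and 10 in the later libraries. In *ddx-23* mutants there were 14 in the 2 genotypes alone, 26 with the series as a term and 43 in the earlier libraries. Between the 2 mutants there were 10 in the 2 genotypes alone, 39 with the series as a term, 44 in the earlier and 34 in the later libraries. A genotype with 1 library in a series is assumed to vary like the others.

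With the replicate number as a block, 5 members were called in *lin-29* mutants, 2 members in *mab-10* mutants, none in *ddx-23* mutants and 4 between *lin-29* and *mab-10* mutants, as given in the report. In a block fit of only the *lin-29* and *mab-10* libraries 3 were called, with *cpr-3* in (adjusted p = 0.0158) and *cpr-8* out (adjusted p = 0.0964 from limma). No other call of a member changed with the block. Same-numbered wild-type and *lin-29* libraries had correlations of 0.313, -0.298 and 0.299. For the wild-type and *mab-10* these were 0.227, -0.228 and 0.310, and for *ddx-23* with any other genotype -0.062 to 0.113. In *lin-29* and *mab-10* mutants number 1 is of the earlier series and numbers 2 and 3 of the later. Between these 2 genotypes pairing by number therefore cannot be told apart from the series, and the numbers are not known to pair samples. Wild-type replicate 2 is of the earlier series, unlike replicate 2 of either mutant, and its correlations with them were the negative ones (-0.298 and -0.228). The cause of these correlations was not tested. Reads per library are unknown, and genes near an FPKM of 0, such as *cpr-2*, cannot be compared. The fits on one series, the block fit of 2 genotypes and the alternatives for the correlations were added after seeing the data.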
